A study of Mus musculus with 4 samples.

Results

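The response of control ureters to purmorphamine, an agonist of SHH signaling, was measured on 2 of the 4 two-color arrays of the series, which hold 4 of its 8 RNA pools. Members were chosen by their labels alone: both arrays on which a purmorphamine-treated control pool was hybridized together with the matching DMSO-treated control pool. Control ureters came from NMRI pups with the genotype label *Pparg* (fl/?), that is, with at least 1 floxed allele of *Pparg* and, per the methods of the study, as cre-negative littermates. They were explanted at P0 and kept for 8 d on transwell membranes, either with 2 µM purmorphamine or with the solvent DMSO (1:1000). The remaining arrays made the same comparison in *Pparg-cKO* ureters (*Pax2-cre/+; Pparg* (fl/fl)), in which cre removes *Pparg* function from the nephric duct derivatives, among them the urothelium. Each pool joined ureters of 1 sex, and how many it joined was not given in the sources used here. Replicate 1 was male, with DMSO labelled with AlexaFluor555, and replicate 2 was female, with the dyes exchanged, so that sex, dye and pool cannot be told apart between both arrays. Explants are cultured whole organs, and the controls share the floxed allele and the outbred background with the mutants.

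SHH is a secreted ligand that the ureteric epithelium makes and the surrounding mesenchyme receives. Without ligand, the receptor PTCH1 keeps the membrane protein Smoothened (SMO) inactive, and with ligand, or with an agonist that binds SMO directly such as purmorphamine, SMO leads to the activation of GLI transcription factors. *Ptch1*, *Hhip* and *Gli1* are transcribed in answer to this signal and serve as its readout, and in the ureter the pathway is known for its part in mesenchymal proliferation and smooth muscle differentiation.

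Of the spots of the control pools, between 66.9% and 70.5% were well above background and 0 were saturated. The sex labels were met in all 4 control pools: *Xist* lay at the floor of 15 in both male pools and at 2259 and 3487 in the female pools, and *Ddx3y* lay at 2725 and 3276 in the male pools and at 15 in both female pools. Levels are given throughout as scaled intensity, the processed signal of a gene's brightest probe after each channel was brought to a 75th percentile of 1500, with a floor of 15. All 14 urothelial markers and all 12 markers of the ureteric mesenchyme were measured above an intensity of 100 in the brighter pool of both arrays. Markers of fat cells were measured as well, with 11 of 12 above the same intensity, for instance *Adipoq*, which encodes the fat cell hormone adiponectin and went from 18331 to 19208 in the male and from 23520 to 15388 in the female pair.

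In control ureters, purmorphamine raised a small group of genes, among them the mesenchymal transcription factors *Meox2* and *Foxd1*, the proteoglycan gene *Ogn* and the hedgehog receptor gene *Ptch1*. It lowered a larger group, with 7 chemokines and cytokines among the 15 largest falls. Of 20229 genes tested with limma, 57 rose and 186 fell at a Benjamini-Hochberg adjusted p under 0.05, which is 0.282% and 0.919% of the genes. The median rise was 1.20 and the median fall was -1.29 on the log2 scale, and 7 genes rose and 44 fell by more than 2. All 243 moved the same way on both arrays, beside 30.9% of all genes that were higher and 28.0% that were lower on both. The calls rest on the mean of these same arrays. This agreement and the separation of pools below therefore follow largely from the choice of genes. Of the 243, 2 raised and 4 lowered genes were not well above background in all 4 control pools and met the filter on the brighter side only. In 57 of the 57 raised genes both purmorphamine pools lay above both DMSO pools, and in 184 of the 186 lowered genes they lay below, beside 24.3% and 18.2% of all genes. By the fold rule of the study's methods, which asks for a change of at least 1.5-fold on both arrays and an intensity above 100 and carries no test, 423 of 15321 genes were raised (2.76%) and 565 were lowered (3.69%), among them 51 and 166 of the genes called by limma. At an unadjusted p under 0.05 there were 1977 and 1989 of the 20229 genes. Counts of list members below are to be read beside these shares of all genes. With 2 arrays the calls were fragile: without the male or without the female control array 0 genes passed in either direction. Centring the arrays on their medians in place of loess moved the median of all genes from 0.02 to 0.14 and gave 170 raised and 119 lowered genes, so that 58.8% rather than 23.5% of the called genes were raised.

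**Figure D1:**
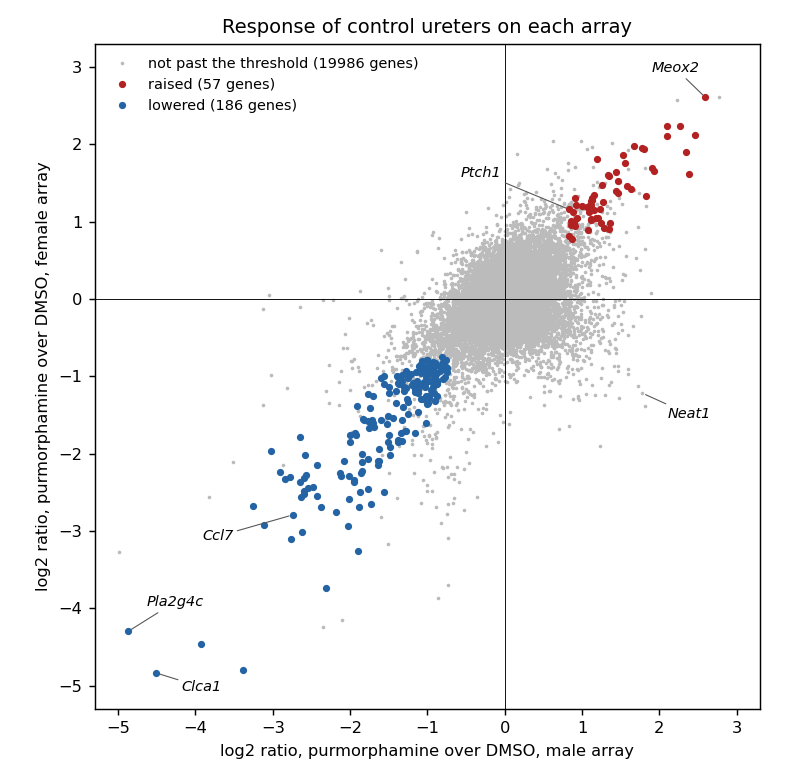
Log2 ratio of purmorphamine over DMSO for each of 20229 genes on the male control array (horizontal axis) and on the female control array (vertical axis), with genes past an adjusted p of 0.05 in limma in color. All 57 raised genes lie in the upper right and all 186 lowered genes in the lower left, the falls reach further than the rises, and *Neat1* lies in the lower right with opposite changes.

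*Ptch1*, *Hhip* and *Gli1*, feedback targets of the pathway, were higher with purmorphamine on both arrays. *Ptch1*, the receptor, went from 220.3 to 413 in the male and from 227 to 551 in the female pair. Neither DMSO pool reached the lower purmorphamine pool, as in 24.3% of all genes. The mean log2 ratio of *Ptch1* was 1.00 (standard error 0.12, adjusted p = 0.0462) by limma with Benjamini-Hochberg adjustment (n = 2 arrays, as for all fold changes of control ureters). *Hhip*, which encodes a membrane-bound decoy for hedgehog ligands, went from 3130.5 to 10566 in the male and from 5342 to 10213 in the female pair. *Hhip* had a larger mean difference than *Ptch1* with 1.33 (standard error 0.20, adjusted p = 0.0679), but the male array gave 1.72 and the female array 0.93, and it missed the threshold. *Gli1*, the transcription factor that is itself a target, went from 1631 to 4941 in the male and from 2578 to 3822 in the female pair. It was unequal between the arrays, with a male ratio of 1.57 and a female ratio of 0.56, and the mean was 1.06 (standard error 0.25, adjusted p = 0.124). Of these targets *Ptch1* passed the test, *Ptch1* and *Hhip* were raised by the fold rule, and each of *Ptch1*, *Hhip* and *Gli1* had an unadjusted p under 0.05. The call of *Ptch1* held in 8 of 15 alternative settings. These are not all distinct, because leaving out either *Pparg-cKO* array gives the same control fit as the control arrays alone.

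Beside these targets, the 22 ligands, receptors and transducers of the pathway gave a median log2 fold change of 0.23 (0.36 for the male and 0.19 for the female array, and 0.17 to 0.38 over the alternatives), with 0 past the threshold in limma, 8 at an unadjusted p under 0.05, all upward, and 3 raised by the fold rule. *Shh* itself went from 2100.2 to 1979 in the male and from 1982 to 2644 in the female pair, so that the pools overlapped, and its log2 fold change was 0.15 (standard error 0.24, adjusted p = 0.815). *Smo*, the target of the drug, had 0.32 (standard error 0.12, adjusted p = 0.243), *Gli2*, the main activator, 0.28 (standard error 0.10, adjusted p = 0.249), and *Gli3*, which mostly acts as a repressor, 0.13 (standard error 0.13, adjusted p = 0.684). The members raised by the fold rule were the co-receptor gene *Cdon* (0.75) and *Scube2* and *Scube3* (0.91 and 0.82), whose family of secreted proteins helps to release the lipid-bound ligand from its source, and their adjusted p was 0.087, 0.0763 and 0.0814. *Pparg*, which the floxed allele of these controls leaves intact, had 0.09 (standard error 0.14, adjusted p = 0.803), with opposite signs on the male (0.31) and the female array (-0.13).

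**Figure D2:**
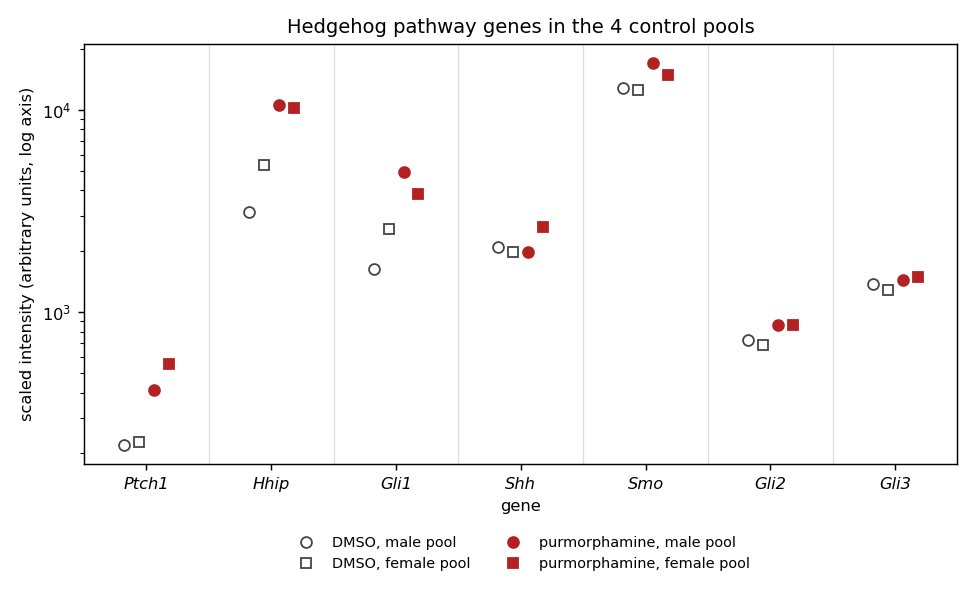
Scaled intensity (arbitrary units, log axis) of 7 hedgehog pathway genes in the 4 control pools, with open symbols for DMSO, filled symbols for purmorphamine, circles for male and squares for female pools. Both purmorphamine pools lie above both DMSO pools for *Ptch1*, *Hhip*, *Gli1*, *Smo*, *Gli2* and *Gli3*, by small distances for the last 3, and the pools of *Shh* overlap. Of all genes, 24.3% have both purmorphamine pools above both DMSO pools.

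The promoters of these genes were searched for the binding sequence of GLI factors on both strands, in the window from 250 bases before to 50 bases after the start of each gene in RefSeq (GRCm38.p6). The letters GACCACCCA occurred in the promoters of 78 of 27025 genes (0.289%) and GACCNCCCA in 309 (1.14%). Promoters were matched for the feedback targets *Ptch1* and *Hhip*, for 13 of the 15 largest rises and for 10 of the 15 largest falls, and 0 of each held either form. With such low shares among all genes, 0 matches were likely in sets this small whatever their regulation. Sites outside the short window were not searched, so the result has no bearing on whether GLI factors act on these genes.

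Of the genes past the threshold that moved alike on both arrays and were well above background in all 4 pools, the 15 with the largest rises were *Meox2*, *Ntrk3*, *Dner*, *Cldn1*, *Gpc3*, *Foxd1*, *Mest*, *Angpt4*, *Fam150b* (now *Alkal2*), *Ajap1*, *Ccdc3*, *Akr1c14*, *Gm9885*, *Ogn* and *Prss35*. *Meox2*, a homeobox transcription factor of mesodermal cells, was at 78.8 and 124 in the male and female DMSO pools and at 608 and 885 with purmorphamine, a mean log2 ratio of 2.60 (standard error 0.23, adjusted p = 0.031). *Foxd1*, a forkhead factor known from the renal stroma, went from 1367 to 6018 in the male and from 1494 to 6636 in the female pair and rose by 2.10 (male array) and 2.11 (female array), with a mean of 2.10 (standard error 0.10, adjusted p = 0.0152). The pools of each of these genes were separated by a factor larger than any difference between pools of the same treatment.

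Among these rises were several genes of cell-surface and secreted signaling proteins. *Ntrk3* encodes TRKC, the receptor of neurotrophin-3, and went from 191 to 1198 in the male and from 277 to 1313 in the female pair (log2 fold change 2.29, standard error 0.15, adjusted p = 0.0213). *Dner*, a transmembrane protein with EGF repeats that can act on Notch, went from 77.3 to 476 in the male and from 183 to 975 in the female pair (log2 fold change 2.25, standard error 0.15, adjusted p = 0.0213). *Gpc3*, a glypican that binds hedgehog ligands on the cell surface and limits their signal, went from 1436 to 7480.3 in the male and from 2128 to 7959 in the female pair (log2 fold change 2.12, standard error 0.18, adjusted p = 0.0274). *Angpt4* encodes an angiopoietin, a ligand of the endothelial receptor TEK. It rose by 1.87, from 136 to 538 in the male and from 143 to 634 in the female pair, and *Tek* itself, which was on the list of endothelial markers, rose by 1.26, from 179 to 465 in the male and from 240.3 to 617 in the female pair. The product of *Fam150b* activates the receptors ALK and LTK, and the gene rose by 1.86 from DMSO levels of 102 and 120.

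The remaining rises included *Cldn1*, a tight junction gene (log2 fold change 2.17, standard error 0.22, adjusted p = 0.0374), which went from 59.2 to 334 in the male and from 84.4 to 499.6 in the female pair. *Mest*, an imprinted gene of embryonic mesoderm, went from 4495 to 23710 in the male and from 7187 to 22283 in the female pair (log2 fold change 2.00, standard error 0.22, adjusted p = 0.0408). *Akr1c14*, a hydroxysteroid dehydrogenase, rose by 1.70, *Ajap1*, a membrane protein of cell junctions, by 1.83, *Ccdc3* by 1.79 and *Prss35* by 1.54. *Gm9885* rose by 1.66, but its DMSO pools lay at 15.5 and 19.7, close to the floor, and the gene has no entry in the RefSeq table used. *Tnmd*, the gene of tenomodulin, a tendon protein, lay under the background limit in both DMSO pools, and purmorphamine pools exceeded it at least 3.17-fold. Among control pools it met the filter only with purmorphamine, so its call is no independent sign of a rise.

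Of 36 mesenchymal transcription factors tested, 3 rose (*Meox2*, *Foxd1* and *Foxd2*), 1 fell (*Six2*) and 32 did not pass, with a median of 0.26 (0.42 for the male and 0.28 for the female array, and 0.19 to 0.44 over the alternatives). By the fold rule 7 were raised and 1 was lowered, and 21 of 36 were higher on both arrays (58.3%, beside 30.9% of all genes). *Foxd2*, a forkhead gene of the urinary tract mesenchyme, went from 1218 to 2619.7 in the male and from 1468 to 2759.6 in the female pair (log2 fold change 0.99, standard error 0.13, adjusted p = 0.0481). *Six2*, known from nephron progenitors, went the other way, from 708 to 346 in the male and from 578 to 217 in the female pair (log2 fold change -1.17, standard error 0.14, adjusted p = 0.045). *Foxf1*, which acts downstream of SHH signaling in gut and ureter mesenchyme, had a log2 fold change of 0.59 (adjusted p = 0.134) and *Tbx18*, a marker of undifferentiated ureteric mesenchyme, of 0.42 (adjusted p = 0.153). *Foxl1* had 0.81 (adjusted p = 0.0559) and *Twist2* 1.03 (adjusted p = 0.0545). None of these 4 passed, although *Twist2* and *Foxl1* were raised by the fold rule.

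Smooth muscle genes were higher with purmorphamine, by less than the largest rises. All 30 contractile genes were higher on both arrays, with a median of 0.67 and a range from 0.28 to 1.04, beside 30.9% of all genes that were higher on both. Nevertheless 0 passed the adjusted threshold in limma, 26 had an unadjusted p under 0.05 and 13 were raised by the fold rule. *Acta2*, smooth muscle actin, went from 30250 to 62601 in the male and from 39310 to 53144 in the female pair. Its male array gave 1.11 and its female array 0.38, with an adjusted p of 0.155. *Myh11*, the smooth muscle myosin heavy chain, went from 8381 to 15400 in the male and from 11484 to 16438 in the female pair (log2 fold change 0.67, standard error 0.15, adjusted p = 0.124). The gap between both arrays was smaller for *Ldb3*, which organizes the contractile apparatus and had the largest difference of the list with 1.04 (standard error 0.19, adjusted p = 0.0922), and for *Synpo2*, an actin-binding protein (log2 fold change 0.99, standard error 0.25, adjusted p = 0.142). *Myocd*, the coactivator of the contractile program, had 0.35 (standard error 0.15, adjusted p = 0.301). The median of the 30 genes was 0.74 for the male array and 0.56 for the female array.

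Of 47 fibroblast and matrix genes, 2 rose and 45 did not pass, with a median of 0.35 (0.46 for the male and 0.18 for the female array), and 6 were raised and 1 was lowered by the fold rule. *Ogn*, a small leucine-rich proteoglycan, went from 2513 to 8978 in the male and from 4024 to 10464 in the female pair (log2 fold change 1.58, standard error 0.19, adjusted p = 0.0457), and *Fmod*, another proteoglycan of this family, which binds collagen fibrils, from 514 to 1587 in the male and from 438 to 1279 in the female pair (log2 fold change 1.52, standard error 0.11, adjusted p = 0.0213). The elastic fiber genes *Fbln5*, *Mfap5* and *Mfap4* had log2 fold changes of 1.07, 1.04 and 0.92 with adjusted p of 0.0695, 0.0783 and 0.0672. The collagen genes *Col1a1* and *Col3a1* had 0.57 and 0.42, from male ratios of 0.82 and 0.72 and female ratios of 0.32 and 0.11. Of 12 markers of the ureteric mesenchyme, 11 were higher on both arrays, beside 30.9% of all genes. In limma 0 passed, 10 were higher and 1 was lower by unadjusted p, and 0 were raised or lowered by the fold rule. In the IGF axis, 1 of 14 genes rose (*Gpc3*, described above), 13 did not pass and the median was 0.37 (0.36 for the male and 0.17 for the female array). *Igfbp2*, an IGF-binding protein gene, had 0.94 (standard error 0.16, adjusted p = 0.084) and was raised by the fold rule.

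The largest falls were steeper than the largest rises. The 15 genes were *Clca1*, *Pla2g4c*, *Col6a5*, *Tnfaip6*, *Il11*, *Fgfbp1*, *Ccl12*, *Retnla*, *Il13ra2*, *Ccl7*, *Gsdmcl-ps*, *Il6*, *Cxcl5*, *Ccl24* and *Ccl8*. *Clca1*, a secreted protease of mucus-producing cells, went from 1098 to 26.9 in the male and from 1657 to 38.6 in the female pair (log2 fold change -4.67, standard error 0.19, adjusted p = 0.0152). *Pla2g4c*, a phospholipase A2 that releases fatty acids from membranes, went from 1575 to 32.4 in the male and from 832 to 22.8 in the female pair (log2 fold change -4.58, standard error 0.30, adjusted p = 0.0213). Both ended near the floor in both purmorphamine pools. *Col6a5*, a chain of collagen VI, went from 1644 to 87.4 in the male and from 2769 to 108 in the female pair (log2 fold change -4.20, standard error 0.15, adjusted p = 0.0152). *Tnfaip6* encodes a hyaluronan-binding protein that inflammatory cytokines induce, and went from 3246 to 297 in the male and from 4738 to 152 in the female pair (log2 fold change -4.09, standard error 0.36, adjusted p = 0.0306). *Il13ra2*, the decoy receptor of IL-13, dropped from 196 and 225 to the floor of 15 in both pools (log2 fold change -2.82, standard error 0.21, adjusted p = 0.0213). *Fgfbp1*, whose product frees FGFs from the matrix, went from 1234 to 124 in the male and from 563 to 57.2 in the female pair (log2 fold change -3.02, standard error 0.24, adjusted p = 0.023).

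Chemokines and cytokines formed the list with the most calls. Of 48 tested, 18 fell, 0 rose and 30 did not pass, with a median of -1.20. At an unadjusted p under 0.05 there were 39, all lower, 24 were lowered by the fold rule and 41 of 48 were lower on both arrays (85.4%, beside 28.0% of all genes). The monocyte attractants *Ccl2*, *Ccl7*, *Ccl8* and *Ccl12* fell together. *Ccl2* went from 27596 to 6364 in the male and from 15197 to 3106 in the female pair (log2 fold change -2.20, standard error 0.15, adjusted p = 0.0213). *Ccl7* went from 16470 to 2442 in the male and from 10335 to 1474 in the female pair (log2 fold change -2.77, standard error 0.15, adjusted p = 0.0168). *Ccl8* had a log2 fold change of -2.55 and *Ccl12* of -2.97. In each of the 4 genes the higher purmorphamine pool lay well under the lower DMSO pool, and 18.2% of all genes had their pools in this order. The eosinophil attractants *Ccl11* and *Ccl24* fell, with log2 fold changes of -1.87 and -2.58, and the neutrophil attractants *Cxcl1* and *Cxcl5* with -2.19 and -2.58. *Cxcl3*, of the same group as *Cxcl1*, had a log2 fold change of -2.25 from a male ratio of -3.12 and a female ratio of -1.37, and did not pass (adjusted p = 0.0912).

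Of the cytokines, *Il6* went from 1133 to 285 in the male and from 1471 to 137 in the female pair (log2 fold change -2.58, standard error 0.32, adjusted p = 0.0473), and its relative *Il11*, which acts on stromal cells, from 8345 to 1683 in the male and from 6949 to 506 in the female pair (log2 fold change -3.02, standard error 0.35, adjusted p = 0.0434). Both fell further on the female array. *Il1b*, the main secreted form of IL-1, went from 502 to 74.4 in the male and from 309 to 53.2 in the female pair (log2 fold change -2.29, standard error 0.12, adjusted p = 0.0152), and *Il33*, an alarmin stored in cell nuclei, from 7277 to 3719 in the male and from 7021 to 2879.8 in the female pair (log2 fold change -1.12, standard error 0.12, adjusted p = 0.0389). *Tnfsf11*, the RANK ligand, fell, with a log2 fold change of -2.19, *Cxcl13*, which attracts B cells, with -2.49, *Il19* with -1.68, *Osm* with -1.23 and *Ccl9* with -1.32. *Tnf* had -0.66 (standard error 0.14, adjusted p = 0.114) and *Cxcl10* -1.35 (standard error 0.56, adjusted p = 0.29), and neither passed. The members that were not lower on both arrays included *Il18* (0.02), *Cxcl11* (0.05), *Il34* (0.14) and *Ccl28* (0.13).

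Many of these genes are known to carry binding sites of NF-kappa B. The promoters of the 18 lowered members were therefore searched on both strands for GGANTTTCC, a short form of that site chosen after the falls had been seen, and 12 of the genes had a promoter in RefSeq (GRCm38.p6). The letters occurred in 3 of the 12 genes (25%) and in 392 of all 27025 (1.45%). They occurred in 1 of 10 largest falls with a promoter (*Il6*), 0 of 13 largest rises and 0 of 2 feedback targets. The site was chosen for a class of genes known to carry it, so a share above that of all genes was likely beforehand. Members of the list that did not fall were not searched, so the share has no bearing on the falls. The 3 windows are shown because they hold the match in genes whose falls passed the test. The match is in capitals, and begins 70, 135 and 43 bases before the start in *Cxcl1* (chr5:90891115-90891217, plus strand), *Il13* (chr11:53634795-53634897, minus strand) and *Il6* (chr5:30013011-30013113, plus strand).
Cxcl1: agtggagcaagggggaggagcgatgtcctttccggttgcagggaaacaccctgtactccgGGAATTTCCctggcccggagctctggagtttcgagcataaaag
Il13: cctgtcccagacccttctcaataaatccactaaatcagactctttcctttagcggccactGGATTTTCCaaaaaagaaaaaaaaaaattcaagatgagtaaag
Il6: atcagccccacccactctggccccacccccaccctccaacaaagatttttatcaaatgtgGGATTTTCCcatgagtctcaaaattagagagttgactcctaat
*Cxcl1*, with the first of these windows, fell from 497 and 483 to 94.6 and 86.0. *Il13*, with the second, fell from 187 and 215 to 16.1 and 15.3, next to the floor. The matches describe the letters of the windows only. Whether NF-kappa B binds there, or had a part in these falls, was not tested.

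**Figure D3:**
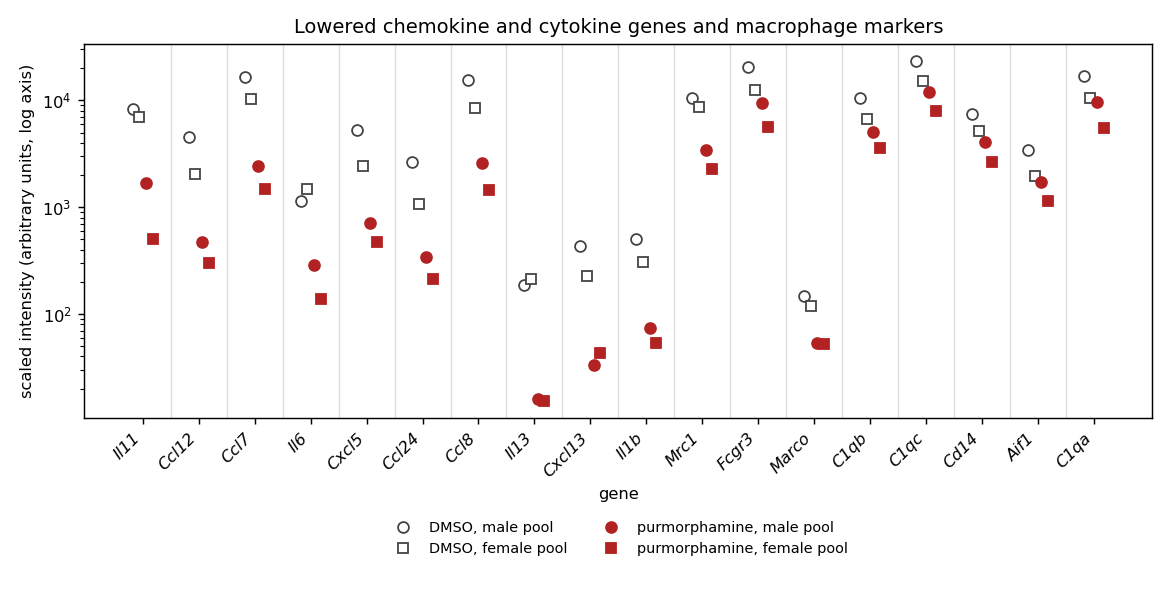
Scaled intensity (arbitrary units, log axis) of 10 lowered chemokine and cytokine genes and of the 8 lowered macrophage markers in the 4 control pools, with open symbols for DMSO, filled symbols for purmorphamine, circles for male and squares for female pools. Both purmorphamine pools lie below both DMSO pools in all 18 genes, beside 18.2% of all genes. The distance is larger for the chemokines and cytokines than for most of the markers.

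Markers of macrophages moved with these genes. All 19 tested were lower on both arrays, beside 28.0% of all genes, and 8 fell, beside 0.919% of all genes. At an unadjusted p under 0.05 there were 18, and 13 were lowered by the fold rule, with a median of -0.89. Their summed intensity went from 205750 to 123870 in the male and from 141740 to 83628 in the female pair. *Mrc1*, the mannose receptor of tissue macrophages, went from 10545 to 3419 in the male and from 8635 to 2270.4 in the female pair (log2 fold change -1.78, standard error 0.12, adjusted p = 0.0213). The complement genes *C1qa*, *C1qb* and *C1qc*, which macrophages make, fell, with log2 fold changes of -0.85, -0.99 and -0.96, *Fcgr3* with -1.14, *Cd14* with -0.93, *Aif1* with -0.89 and *Marco* with -1.05. *Adgre1*, the F4/80 antigen, had -1.12 (standard error 0.16, adjusted p = 0.0584), *Csf1r*, the receptor on which macrophages depend, -0.87 (standard error 0.19, adjusted p = 0.113), and *Cd68* -0.41 (standard error 0.12, adjusted p = 0.176). The part of this shift in the falls of chemokines and cytokines was not tested, and in pooled tissue fewer cells of a type and less RNA per cell cannot be told apart. Of 14 markers of lymphocytes, mast cells and granulocytes, 0 passed in limma, 3 were lower at an unadjusted p under 0.05, 0 passed the fold rule, and the median of -0.13 (-0.16 for the male and -0.081 for the female array) turned to 0.00083 with median centring.

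Genes of mucosal defense and injury had 8 falls and 0 rises among 39 tested, with a median of -0.88. By unadjusted p there were 22 lower and 1 higher, 17 were lowered by the fold rule, and 32 of 39 were lower on both arrays (beside 28.0% of all genes). *C3*, the central complement component, went from 35876 to 9844 in the male and from 34573 to 8125 in the female pair (log2 fold change -1.98, standard error 0.15, adjusted p = 0.023). *Ptgs2*, the inducible cyclooxygenase, went from 1393 to 291 in the male and from 852 to 111 in the female pair (log2 fold change -2.47, standard error 0.17, adjusted p = 0.0213). *Mmp3* and *Mmp9*, matrix proteases, fell, with log2 fold changes of -2.15 and -1.68, and the acute phase genes *Saa1*, *Saa2* and *Saa3* with -1.36, -1.06 and -2.09. The products of the *Saa* genes are near copies of each other, so that their probes may share signal. *Chil3*, a chitinase-like protein of activated macrophages, had the second lowest value of the list, -4.13 (standard error 0.69, adjusted p = 0.0797), but its DMSO pools differed, 1479 for male and 243 for female ureters, and it did not pass. *Reg3b* and *Reg3g*, secreted lectins that bind bacteria, had -3.13 (standard error 0.50, adjusted p = 0.0722) and -1.86 (standard error 0.42, adjusted p = 0.118). Genes of the interferon response, 26 in number, had 0 calls in limma, 8 lower at an unadjusted p under 0.05 and 7 lowered by the fold rule, with a median of -0.46 (-0.26 to -0.58 over the alternatives). *Oas1a*, an antiviral enzyme, had -1.02 (standard error 0.17, adjusted p = 0.0762) and *Oasl1* -1.10 (standard error 0.23, adjusted p = 0.108).

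A few further sets stood out when the called genes were read, and were chosen after their values had been seen. The first are type 2 cytokines. *Il5*, which sustains eosinophils, dropped from 113 and 177 to 15 and 19.8 (log2 fold change -2.05, standard error 0.14, adjusted p = 0.0213). *Il9* dropped from 145 and 93.2 to the floor, under the background limit, and was therefore at least 4.89-fold lower. Among control pools it met the filter only with DMSO, so its call adds nothing to this bound. *Il13* fell as given above (log2 fold change -2.54, standard error 0.12, adjusted p = 0.0152), whereas *Il4* stayed under 50 in all pools and had -0.58 (standard error 0.11, adjusted p = 0.0956). *Retnla* and *Arg1*, which IL-4 and IL-13 induce in macrophages, fell, with log2 fold changes of -2.93 and -2.50, *Retnla* from 1288 to 168 in the male and from 1152 to 118 in the female pair. The second are gasdermin C genes, pore-forming proteins of epithelia. *Gsdmc* went from 19373 to 5048 in the male and from 16846 to 3301 in the female pair (log2 fold change -2.15, standard error 0.20, adjusted p = 0.0333). *Gsdmc3* went from 35975 to 8890.3 in the male and from 31530 to 5268 in the female pair (log2 fold change -2.30, standard error 0.25, adjusted p = 0.0389) and *Gsdmc4* from 9994 to 1863 in the male and from 8067 to 1354 in the female pair (log2 fold change -2.49, standard error 0.19, adjusted p = 0.0213). *Gsdmcl-ps* fell, with a log2 fold change of -2.60. These are close paralogs, and how much each probe binds the others is uncertain. The third are protease inhibitors of the *Serpina3* cluster, also paralogs. *Serpina3b*, *Serpina3c*, *Serpina3f*, *Serpina3h* and *Serpina3i* fell, with log2 fold changes of -1.17 to -2.48, while *Serpina3g* (-2.27), *Serpina3n* (-1.59) and *Serpina3m* (-1.04) did not pass.

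In the urothelium, genes of superficial cells tended upward. Of 28 tested, 1 rose, 27 did not pass and the median was 0.60. By unadjusted p there were 20 higher and 3 lower, 12 were raised and 3 lowered by the fold rule, and 22 of 28 were higher on both arrays (beside 30.9% of all genes). The call was *Cyp4f15*, a fatty acid hydroxylase, which went from 728 to 1779 in the male and from 1129.9 to 2280.5 in the female pair (log2 fold change 1.11, standard error 0.14, adjusted p = 0.0473). Of the uroplakins, the proteins of the plaques on the luminal surface, *Upk1a* and *Upk1b* came closest to the threshold. *Upk1a* went from 11380 to 27201 in the male and from 14708 to 33189 in the female pair (log2 fold change 1.20, standard error 0.16, adjusted p = 0.0541). *Upk1b* went from 9866 to 18458 in the male and from 11151 to 20715 in the female pair (log2 fold change 0.89, standard error 0.12, adjusted p = 0.051), and *Upk2* had 0.67 (standard error 0.12, adjusted p = 0.0841). *Upk3a* had 0.47 (standard error 0.12, adjusted p = 0.137) and *Upk3b* 0.67 (standard error 0.11, adjusted p = 0.0749). In all 5 the purmorphamine pools lay above both DMSO pools, as in 24.3% of all genes, and none passed. *Krt20*, the keratin of superficial cells, went from 4843 to 10346 in the male and from 5914 to 13733 in the female pair (log2 fold change 1.15, standard error 0.24, adjusted p = 0.108), and *Hsd17b2*, a steroid dehydrogenase, from 565 to 1128 in the male and from 773 to 1766 in the female pair (log2 fold change 1.05, standard error 0.23, adjusted p = 0.113). *Grhl3*, a transcription factor of superficial cells, had 0.63 (standard error 0.11, adjusted p = 0.0814). The 3 lower members were *Fgl1* (-1.42), *Upk3bl* (-1.19) and *Bpifb1* (-1.03), with adjusted p of 0.0633, 0.0519 and 0.0707.

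Among 24 genes of basal and intermediate cells, 2 fell and 22 did not pass, and the median was -0.07 (-0.13 for the male and -0.072 for the female array), or 0.05 with median centring. *Krt15*, a keratin of basal cells, went from 14891 to 4561 in the male and from 7238 to 2282 in the female pair (log2 fold change -1.67, standard error 0.16, adjusted p = 0.0349), and *Epcam*, an epithelial adhesion molecule, from 5429 to 2586 in the male and from 4307 to 2429 in the female pair (log2 fold change -0.96, standard error 0.12, adjusted p = 0.0473). Other basal genes did not pass: *Krt5* had -0.20 (standard error 0.30, adjusted p = 0.8) and *Krt14* -0.16 (standard error 0.26, adjusted p = 0.808), and *Trp63*, the transcription factor of basal cells, -0.0013 (standard error 0.11, adjusted p = 0.997). Of 20 urothelial transcription factors, 1 fell (*Fosl1*, an AP-1 subunit, with -1.37 and an adjusted p of 0.0213) and 19 did not pass. Their median was -0.13 (-0.041 for the male and -0.12 for the female array), or 0.02 with median centring. Of 14 general markers of the urothelium, 1 fell (*Epcam*), 13 did not pass and the median was 0.22, with summed intensities from 228490 to 274880 in the male and from 229120 to 274200 in the female pair.

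Of 32 genes of squamous differentiation and cornification, 2 fell and 30 did not pass, with a median of -0.22 (-0.086 to -0.27 over the alternatives) and 6 lowered by the fold rule. *Krt4*, a keratin of wet stratified epithelia, dropped from 111 and 83.0 to 16.4 and 15 (log2 fold change -1.71, standard error 0.14, adjusted p = 0.0232), and *Sprr2a1*, a cornified envelope gene with close paralogs, from 27.0 and 38.1 to the floor. *Sprr2a1* was above background in 1 of the purmorphamine pools and met the filter through the DMSO pools, so that its fall carries no weight beside that of *Krt4*. *Krt6b*, a keratin of stressed epithelium, had -0.90 (standard error 0.45, adjusted p = 0.367), *Krt16* 0.89 (standard error 0.51, adjusted p = 0.436) and *Krt17* 0.17 (standard error 0.44, adjusted p = 0.895), with *Krt17* under an intensity of 50 in every pool.

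In the pathways that link epithelium and mesenchyme, FGF and EGF genes held 6 falls and 0 rises among 32 tested (12 lower and 1 higher by unadjusted p, 10 lowered by the fold rule). Their median was -0.26, with -0.092 for the male and -0.37 for the female array, and ran from -0.067 to -0.37 over the alternatives. Among ligands, *Areg*, an EGF receptor ligand, went from 798 to 191 in the male and from 650.4 to 110.4 in the female pair (log2 fold change -2.16, standard error 0.17, adjusted p = 0.023) and *Fgf9*, an epithelial FGF, from 464 to 195 in the male and from 499 to 233 in the female pair (log2 fold change -1.10, standard error 0.12, adjusted p = 0.0394). *Ereg*, another ligand of the EGF receptor, had the lowest value of the list, -3.29 (standard error 0.43, adjusted p = 0.051), and just missed the threshold. Among the response genes, *Dusp6*, which FGF signaling induces to limit itself, went from 5931 to 2467 in the male and from 4326 to 1870.3 in the female pair (log2 fold change -1.25, standard error 0.11, adjusted p = 0.0293). *Etv4* and *Etv5*, transcription factors downstream of the same receptors, fell, with log2 fold changes of -1.59 and -0.82, and *Etv1* had -1.16 (standard error 0.16, adjusted p = 0.0553). The Sprouty genes, which also limit receptor signaling, had -0.20 (*Spry1*), -0.15 (*Spry2*) and -0.77 (*Spry4*), all short of the threshold. The receptor genes *Fgfr1*, *Fgfr2* and *Egfr* had 0.08, 0.24 and -0.04.

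Of 40 genes of BMP and TGF-beta signaling, 0 passed in limma, 13 were higher and 5 lower by unadjusted p, and 2 were raised by the fold rule, with a median of 0.15 (0.13 to 0.32 over the alternatives). Those 2 were the ligand genes *Bmp6* (log2 fold change 0.80, standard error 0.10, adjusted p = 0.051) and *Tgfb3* (log2 fold change 0.79, standard error 0.12, adjusted p = 0.0646). *Bmp4*, which the ureteric mesenchyme makes, had 0.56 (standard error 0.14, adjusted p = 0.146) and *Id2*, a target of BMP signaling, 0.71 (standard error 0.13, adjusted p = 0.0875). Of 39 WNT genes, 0 passed in limma, 12 were higher and 2 lower by unadjusted p, and 3 were raised and 1 was lowered by the fold rule, with a median of 0.10 (0.037 to 0.24 over the alternatives). *Lgr6*, a receptor of R-spondins, had the largest value, 1.55 (standard error 0.24, adjusted p = 0.0689), and the R-spondin gene *Rspo1* had 1.08 (standard error 0.27, adjusted p = 0.141). *Axin2*, the general target of canonical WNT signaling, had -0.10 (standard error 0.14, adjusted p = 0.784). Of 17 genes of retinoic acid synthesis and response, 1 fell and 16 did not pass, with a median of -0.10 (-0.13 for the male and -0.017 for the female array), or 0.0023 with median centring. The fall was *Aldh1a3*, a retinaldehyde dehydrogenase, from 2209 to 1134 in the male and from 1954 to 805 in the female pair (log2 fold change -1.15, standard error 0.14, adjusted p = 0.0473), while the mesenchymal enzyme gene *Aldh1a2* had -0.56 (standard error 0.14, adjusted p = 0.136).

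Cell cycle genes were lower as a group without single calls. Of 48 tested, 41 were lower on both arrays (85.4%, beside 28.0% of all genes), 0 passed in limma, 33 were lower and 1 was higher by unadjusted p, and 10 were lowered by the fold rule, with a median of -0.51 (-0.34 to -0.57 over the alternatives). *Mki67*, the common marker of cycling cells, went from 3651 to 2175 in the male and from 3458 to 2438 in the female pair (log2 fold change -0.63, standard error 0.24, adjusted p = 0.265). *Ccnb1*, the mitotic cyclin, went from 2817 to 1528 in the male and from 2520 to 1458 in the female pair (log2 fold change -0.84, standard error 0.18, adjusted p = 0.114), and *Cdk1* had -0.74 (standard error 0.13, adjusted p = 0.0908). The D-type cyclins *Ccnd1*, *Ccnd2* and *Ccnd3* had 0.19, 0.10 and 0.10, and *Cdkn1c*, an inhibitor of cyclin-dependent kinases, had the highest value of the list, 0.77 (standard error 0.24, adjusted p = 0.196). Of 24 cholesterol synthesis genes, 22 were lower on both arrays, beside 28.0% of all genes. In limma 0 passed, 13 were lower at an unadjusted p under 0.05 and 2 were lowered by the fold rule (median -0.40, -0.21 to -0.42 over the alternatives). Of 31 genes of hypoxia and stress, 1 fell, 30 did not pass and 7 were lowered by the fold rule (median -0.30). The fall was *Egln3*, an oxygen-sensing hydroxylase, from 8830.5 to 1485 in the male and from 5776 to 1412 in the female pair (log2 fold change -2.30, standard error 0.17, adjusted p = 0.0213). The glucose transporter gene *Slc2a1* had -0.80 (standard error 0.11, adjusted p = 0.0584), and the hypoxia-induced genes *Vegfa* and *Adm* had -0.25 and -0.0013.

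**Figure D4:**
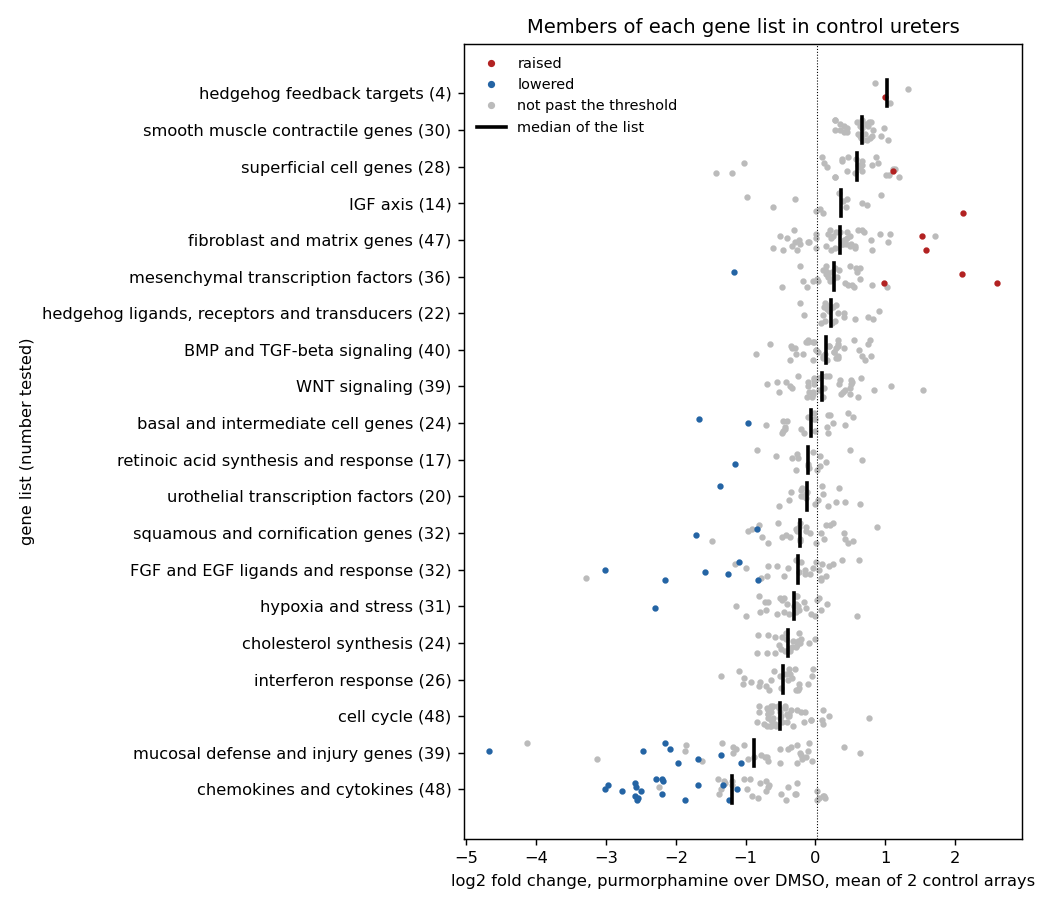
Log2 fold change of purmorphamine over DMSO (mean of both control arrays) for the members of 20 gene lists, each dot a gene, with the number tested in brackets, the list median as a bar and the median of all genes as a dotted line. The medians run from 1.03 for the hedgehog feedback targets to -1.20 for chemokines and cytokines, and the calls in the lower lists are falls.

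Markers of other cell types were set beside these results. Of 16 endothelial markers, 1 rose (*Tek*), 15 did not pass, and the median was 0.15 for the male array and 0.79 for the female array. Their summed intensity went from 13191 to 17526 in the male and from 7933 to 16007 in the female pair. *Cdh5*, the endothelial cadherin, had 1.31 (standard error 0.21, adjusted p = 0.071), whereas *Flt1*, a VEGF receptor gene, had -1.02 (standard error 0.17, adjusted p = 0.0797). In the other lists of cell type markers 0 passed in limma, apart from *Trpm5*, an ion channel of tuft cells that rose by 1.07 while *Pou2f3*, the defining factor of these cells, stayed between 18.5 and 28.3. Of the 12 markers of fat cells 1 was higher at an unadjusted p under 0.05 and by the fold rule (*Cidea*), with medians of 0.07 (male array) and -0.60 (female array). Of kidney markers, 3 of 14 were above an intensity of 100 on both arrays, with 4 lower at an unadjusted p under 0.05 and 1 lowered by the fold rule (*Wt1*), and their summed intensity went from 1608 to 751 and from 1074 to 750. Of 13 neural and Schwann cell markers 3 were higher by both of these measures (*S100b*, *Ednrb* and *Uchl1*), with medians of 0.48 (male array) and -0.10 (female array). Pericyte markers, 8 in number, had 1 higher at an unadjusted p under 0.05 and 0 by the fold rule (median 0.07, 0.22 for the male and -0.049 for the female array). The 6 mesothelial markers, of which *Krt19* and *Upk3b* are also urothelial, had 1 higher and 3 lower, and 1 higher and 1 lower by the fold rule (median -0.48, -0.20 for the male and -0.55 for the female array). The 4 markers of red blood cells had 2 lower and 0 by the fold rule (median -0.70, -0.011 to -1.64 over the alternatives), all under an intensity of 100. The part of these cell types in the gene groups above was not tested.

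Set against the same treatment of *Pparg-cKO* ureters, which was measured in other pools, the control response went mostly the same way. Of the 57 genes raised in control ureters, 57 were higher on both *Pparg-cKO* arrays, beside 33.9% of all genes. The threshold was passed there by 55, beside 374 raised of all 20229 genes. Of the 186 lowered genes, 183 were lower on both *Pparg-cKO* arrays, beside 36.1% of all genes. Of them 161 passed, beside 567 lowered of all 20229 genes. All 4 arrays entered the estimate of spread behind the calls of either genotype, so these counts are not independent of the choice of genes. The median of the raised genes was 1.20 in control and 1.59 in *Pparg-cKO* ureters, and that of the lowered genes was -1.29 and -1.19. The difference between the genotypes passed the adjusted threshold for 0 genes in limma (lowest adjusted p = 0.981). The unadjusted p was under 0.05 for 350 genes with a higher and 319 with a lower value in control ureters. These are 669 of 20229 genes, a share below the 0.05 that no difference at all would give on average. With 2 arrays per genotype and genes that are not independent, this share does not show that the genotypes respond alike. It also depended on which arrays were kept.

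Some of the genes named above had low unadjusted p-values for that difference, in either direction. A few are given as examples, and being picked for such values they are no sign of a difference between the genotypes. *Retnla* had a log2 fold change of -2.93 in control and -1.60 in *Pparg-cKO* ureters (limma, unadjusted p = 0.00149). *Pla2g4c* had -4.58 and -2.01 (limma, unadjusted p = 0.00166). *Six2* had -1.17 and -0.06, and *Fgf9* -1.10 and -0.21. The gasdermin gene *Gsdmc4* had -2.49 and -0.73 (limma, unadjusted p = 0.00107). Of the rises, *Ajap1* had 1.83 in control and 2.86 in *Pparg-cKO* ureters (limma, unadjusted p = 0.00159). *Upk1b*, which did not pass in control ureters, had 0.89 and 1.72. The other way, *Igfbp2* had 0.94 and -0.03 (limma, unadjusted p = 0.00836), *Trpm5* 1.07 and 0.44, and *C3* -1.98 and -2.77. None of these differences passed the adjustment over all probes.

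**Figure D5:**
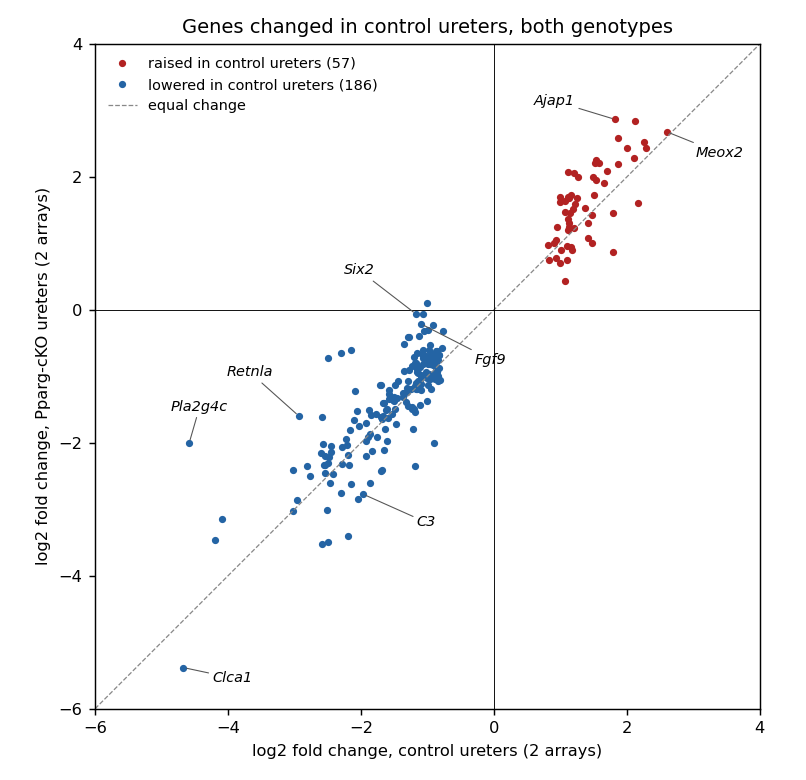
Log2 fold change of purmorphamine over DMSO in control (horizontal axis) and *Pparg-cKO* ureters (vertical axis, mean of 2 arrays each) for the 243 genes changed in control ureters, with a dashed line at equal change. Raised genes lie in the upper right, nearly all lowered genes in the lower left, and *Pla2g4c*, *Retnla*, *Six2* and *Fgf9* lie above the line.

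The 2 control arrays did not respond alike in all genes. Their log2 ratios had a Pearson's r of 0.507 over all genes, which are not independent replicates, and the median standard deviation between them was 0.16. Of 13541 genes with a symbol and an intensity above 100, 76 were raised at least 1.5-fold on the male and lowered as much on the female array. The reverse held for 6. Sex, dye and pool differ together between these arrays, so the source of these differences cannot be told apart. *Neat1*, a long nuclear RNA, belonged to the first group and went from 7739 to 26885 in the male and from 23311 to 10159 in the female pair (1.78 and -1.22). It was joined by *D10Bwg1070e* (1.81 and -1.38), *Gm2701* (1.30 and -1.24), *D330022H12Rik* (1.60 and -0.90) and *E130101M22* (0.83 and -1.64). In the second group, the mast cell protease gene *Mcpt1* went from 3576 to 1868 in the male and from 688 to 1289 in the female pair. *Mcpt2*, its relative, went from 4177 to 2303 in the male and from 722 to 1289.5 in the female pair. *Nts*, the gene of neurotensin, *Defb1*, a defensin, and *Ndufa4l2*, a hypoxia-induced mitochondrial gene, completed the 5 largest, with male ratios of -0.86, -1.14 and -1.14 and female ratios of 0.66, 0.61 and 0.62.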

How the data were processed

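Agilent two-color arrays compared purmorphamine-treated with DMSO-treated ureter pools, and the authors deposited 1 scanner file per array. Per the file headers, these hold spot intensity (mean, background and processed signal) from Feature Extraction 12.2.0.7, while the labels give 10.7.3.1. The scanner files' log10 ratios, deposited by the authors, were not used. A deposited series table holds signed fold changes rounded by the authors, treated as a score, and was an alternative only. Probe positions were not used.

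Mean signals were corrected by normexp (offset 50, which compresses the changes of dim genes) and loess within arrays in R 4.3.3 with limma 3.58.1, leaving out control and outlier spots, and the 4 spots of a probe were averaged. Probes entered the test if at least 3 spots passed the scanner software's background limit in each pool of 1 or more groups (27064 probes, 20229 genes). All 4 arrays were fitted with 1 coefficient per genotype, each log2 ratio being purmorphamine over DMSO, and p-values were adjusted over all probes. The brightest probe stood for a gene. All arrays were on 1 slide. Nothing says that replicates are more than single pools. The p-values measure the spread between the arrays of a genotype, in which pool, sex and dye are mixed, taken over both genotypes. The number of arrays limits the precision. For probes not well above background in a treatment, changes are bounds against the lowest signal well above background. Scripts were tested on simulated data, with 200 of 27064 probes changed in the control arrays. The limma test found 0% of them at a log2 change of 1 and 91% at a log2 change of 2. A count of 0 in limma therefore does not show that changes of about 1 or less are absent.

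Genes were named by rule: the hedgehog targets, transducers and *Pparg*, the 15 largest rises and falls, up to 5 called members per list, the genes measured by RT-qPCR in the study, and the 5 genes with the largest opposite changes each way. Further list members are given as examples chosen after their values were seen. The lists, the rule and the tests were chosen with earlier results of these data known. Gene symbols are those of the array design, and 15923 tested genes were matched to RefSeq by accession. Single values of some list members are not reported here.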

Additional observations from a re-analysis of the deposited data

Results flagged for a closer look

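Among 87 named genes, 2 keratin genes of stressed or squamous epithelium had log2 ratios of opposite sign in the genotypes. Every control array lay on one side of 0 and every *Pparg-cKO* array on the other. *Krt16* had log2 ratios of 0.51 and 1.27 on the male and female control arrays and of -1.23 and -3.33 on the *Pparg-cKO* arrays, a difference of 3.17 (limma, unadjusted p = 0.00679, adjusted p = 1.00). *Krt17* had 0.00069 and 0.34 in control and -1.16 and -3.06 in *Pparg-cKO* ureters, a difference of 2.28 (limma, unadjusted p = 0.0146, adjusted p = 1.00), and its male control value is next to 0. Neither difference passed the adjustment. In the female control pair *Krt17* was at or near the floor, with 15 and 22.2. Only the named genes were searched for this pattern. Its share among all genes was not counted, so the pattern is no sign of a difference between the genotypes.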

How the results depend on the processing

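The numbers of genes called by limma (57 raised, 186 lowered) depended on the processing, and the cause was not tested beyond what each setting changes. They were 33 and 132 with median-centred processed signals, 43 and 154 with an offset of 16, 170 and 119 with median centring, 70 and 213 with the strict filter, 94 and 134 with the separate-channel fit, 79 and 221 with the mean of probes, and 205 and 377 with the control arrays alone. Without a filter on dim probes 0 and 0 passed (2471 and 2410 at an unadjusted p under 0.05), and with the deposited fold changes 0 and 0 (2014 and 1742). Leaving out 1 array gave between 0 and 205 raised and between 0 and 377 lowered genes, 0 without either control array, where the lone control array is assumed to vary like the other genotype, and 205 and 377 without either *Pparg-cKO* array. Leaving out either *Pparg-cKO* array gives the same control fit as the control arrays alone, so these settings are not separate checks. Adjusting over 1 probe per gene, chosen after seeing the data, gave 82 and 226. The difference between genotypes stayed at 0 genes except for 39 without *Pparg-cKO* replicate 1, so that leaving out 1 array gave 0 to 39.

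With the replicate block, 57 genes were raised and 209 lowered, of which 37 and 127 were shared with the fit without it. Replicate numbers coincide with sex and dye and were not taken as pairs. The deviations of same-numbered arrays had a correlation of 0.157.

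By the fold rule, 96 genes were raised and 204 lowered at 2-fold, and leaving out 1 control array gave 1155 to 1399 raised and 1234 to 1321 lowered genes. Leaving out 1 control array turned signs: *Shh* ran from -0.11 to 0.40 and *Pparg* from -0.13 to 0.31. With median centring the list medians became 0.0023 for retinoic acid, 0.021 for urothelial transcription factors, 0.052 for basal and intermediate cells, 0.00083 for lymphocytes, mast cells and granulocytes, and -0.026 for tuft cells. The tuft cell median was also -0.029 with processed signals and -0.023 to 0.064 without 1 control array. On the same terms the medians of fat cells ran from -0.60 to 0.071, of neural cells from -0.10 to 0.48 (-0.012 with the mean of probes) and of pericytes from -0.049 to 0.22.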
